A study of Mus musculus with 2 samples.

Results

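Cadherin and integrin genes were compared between interdigital tissue of wild-type and Hammer toe hind limbs, and none of the 17 with both arrays above a floor on low intensities differed by 1.5-fold. For Itgb4 and Itgae, under that floor in wild type, only a lower bound of the ratio can be given, so a larger difference is possible. The group was defined by gene symbol alone: all Cdh genes with a number, and all Itga and Itgb genes with a number or a letter, that a probe set names without a second gene. Cdh1, Cdh3, Cdh5, Cdh15, Cdh19, Itga8, Itgam and Itgb2 were left out by the same definition, and the symbols Itga2b and Itgb2l did not match it. This gave 37 of 18193 named genes, read by 82 of the 45101 probe sets, with 16 cadherins, 20 integrin chains and Itgbl1, a secreted protein that resembles an integrin beta chain but is not a receptor. Where several probe sets name a gene, its value is that of the one with the highest mean intensity.

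The wild type was C57BL/6 (labelled B6), and the mutant was homozygous for Hammer toe, a mouse mutation that leaves webbing between the digits. The interdigital regions ID2 and ID3 of hind limbs were taken at E13.5, mid-gestation, after natural mating. From 250 ng of total RNA, material was prepared for an Affymetrix array. The design mentions 3 sets of 5 littermates and 15 embryos in each genotype, but the values come from 1 array per genotype, and how the sets relate to it is not stated. No strain is given for the mutant, so strain and Hammer toe genotype cannot be told apart. With 1 array in each group there is no replicate, no error between samples and no test, and every difference below is a description of this pair of arrays. In tissue samples, fewer cells of a type and less RNA per cell cannot be told apart.

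Cadherins are calcium-dependent transmembrane proteins that bind the same or a related cadherin on the neighbouring cell and hold on to the actin skeleton inside through catenins. Type I and type II cadherins differ in the outermost domain that makes this contact, and mesenchymal cells of the limb are known for N-cadherin (Cdh2) and cadherin-11 (Cdh11). Integrins are heterodimers of an alpha and a beta chain that bind matrix proteins such as fibronectin, laminins, collagens and tenascins, and the pairing of the chains sets the ligand. Between the digits the mesenchyme regresses while the cells around it condense into cartilage, so adhesion genes are of interest in webbed digits.

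Intensities under the median of all values, 78.1, were treated as noise and raised to that floor, and genes with at least 1 array above the floor are called measured here. On that rule 19 of the 37 members were measured (51.4%), against 63.9% of all named genes. Of the 16 cadherins 7 were measured, and of the 20 integrin chains 12. For 17 members both arrays were above the floor. Itgae and Itgb4 were under it in wild type, so their ratios are lower bounds. Intensities of different probe sets are not compared with each other, because probes bind with different strength. Sums given below for marker lists add such intensities, so the brightest probe sets weigh most in them. The tissue label was checked against 8 limb mesenchyme genes, among them Prrx1, Hoxd13 and Aldh1a2: all were far above the floor in wild type and mutant, with a lowest reading of 761.

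**Figure D1:**
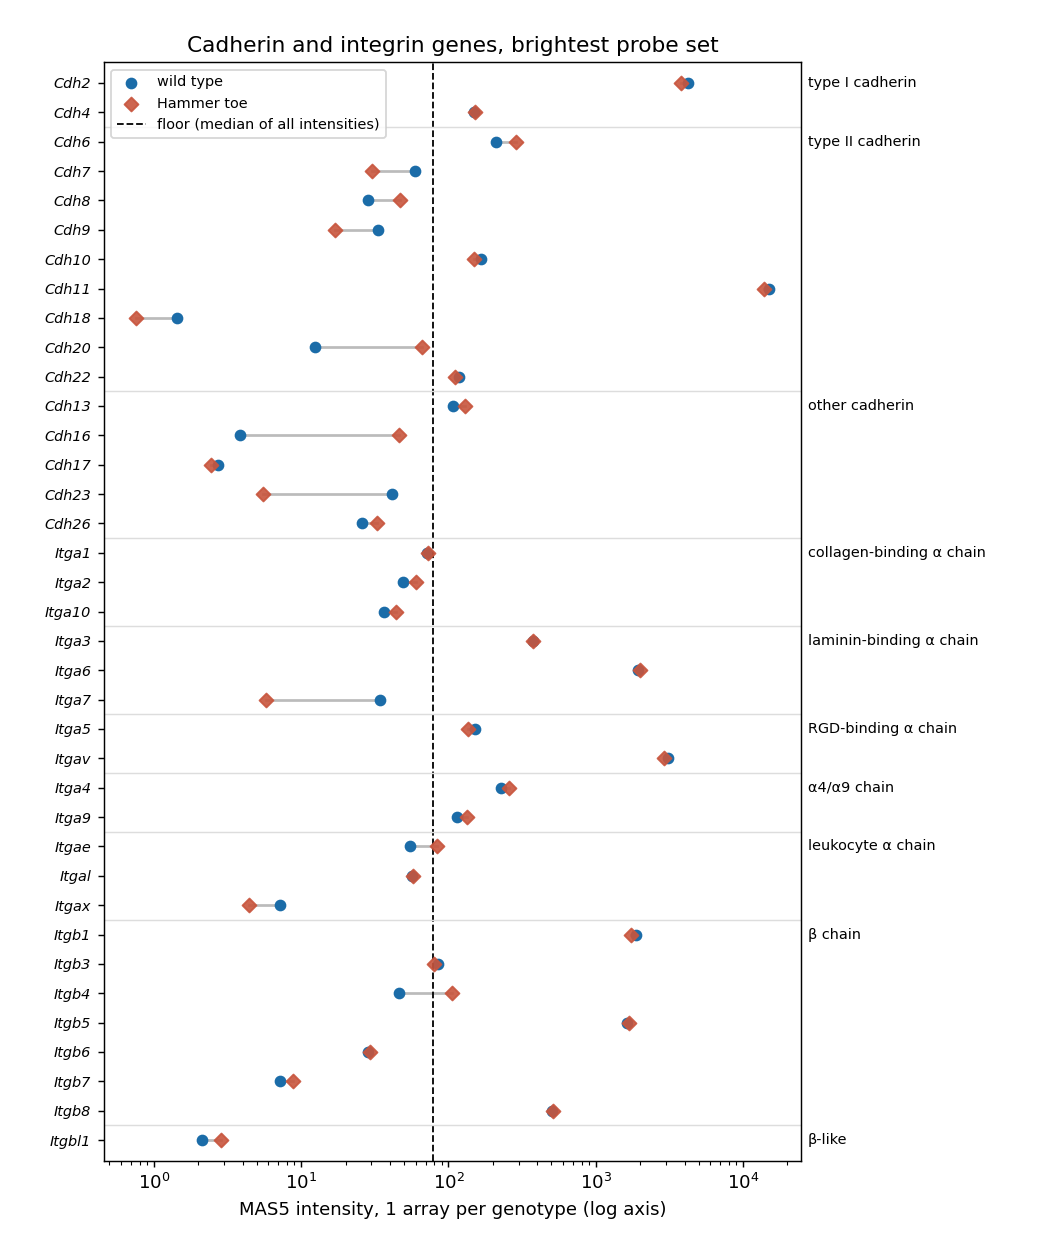
MAS5 intensity (log axis) of the brightest probe set of each of the 37 members in wild type (circles) and Hammer toe (diamonds), 1 array each, grouped by role; the dashed line is the floor of 78.1. Members to the right of the floor have nearly overlapping symbols, apart from Cdh6 and the pair that cross it, Itgae and Itgb4.

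Of the 19 measured members, with Itgae and Itgb4 counted at their bounds, 0 were 1.5-fold or more higher in Hammer toe and 0 were 1.5-fold or more lower. Over all 11621 measured genes these shares were 2.17% and 1.39%, so counts of 0 among 19 genes are near the background. The median log2 ratio (Hammer toe over wild type) of the measured members was 0.02, beside 0.01 over all measured genes, with 11 members above zero (57.9%, beside 51.7% of all) and 8 below. For members above the floor on both arrays the ratios ran from -0.16 for Cdh2 to 0.46 for Cdh6. At a lower size of change, 1.3-fold, Cdh6 and Itgb4 were the 2 members higher and 0 were lower, beside 6.32% and 4.59% of all measured genes. With Itgae counted at its bound, the difference stayed under 0.17 on the log2 scale in 15 of the 19 members, beside 63.7% of all measured genes. The range that holds 95% of all genes narrows with intensity, from 1.60-fold up to an intensity of 200 to 1.45-fold between 200 and 1000 and 1.24-fold above 1000, and 0 of the 9, 4 and 6 members in these classes lay outside it. This counts Itgae and Itgb4, both in the lowest class, at their bounds. Without a floor the log2 ratio of Itgb4 was 1.19. It cannot be set against the limit of its class, 0.68, because that limit was taken with the floor in place.

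**Figure D2:**
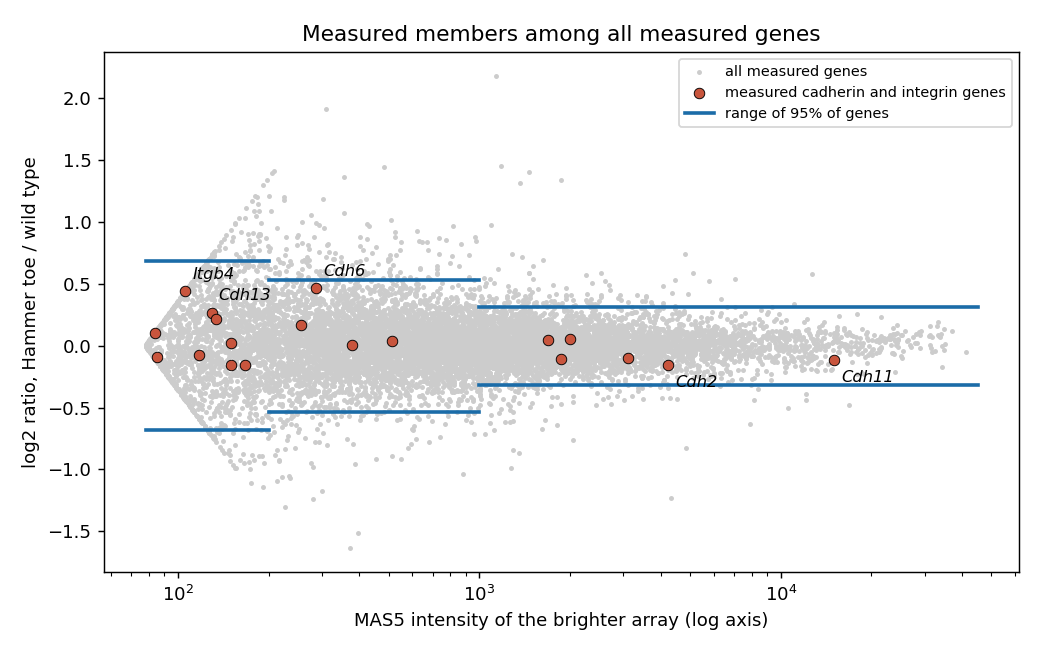
Log2 ratio, Hammer toe over wild type, against the intensity of the brighter array (log axis) for all 11621 measured genes (grey) and the 19 measured members (red); blue lines enclose 95% of all genes in each of the 3 intensity classes. The 17 members above the floor on both arrays lie between the lines, Cdh6 nearest to one; Itgae and Itgb4 are plotted at their lower bounds, so their place is not known.

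Among the type I cadherins, Cdh2, which mediates contact between mesenchymal cells and is high in condensing cartilage, read 4231 on the wild-type and 3791 on the Hammer toe array, a log2 ratio of -0.16. Its second probe set read 1372 and 1305, a log2 ratio of -0.07. Both readings were thus slightly lower in the mutant and inside the range of genes of their intensity. Cdh4 (R-cadherin), a relative of Cdh2, read 148 and 150.5, and its second probe set 119 and 109. Its log2 ratios of 0.02 and -0.14 lie on opposite sides of zero, as is common here: 56.8% of all genes with several such probe sets have readings on both sides.

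Type II cadherins included Cdh6, which had the largest ratio among the members above the floor on both arrays. This gene (K-cadherin), known from kidney and from the neural crest, read 209 on the wild-type and 288 on the Hammer toe array, 1.38-fold higher. Its second probe set read 123 and 168, 1.36-fold higher. The readings thus gave nearly the same difference, with log2 ratios of 0.46 and 0.45, from separate probe sets on the same RNA samples. Among 5134 genes with 2 or more probe sets whose arrays both exceed the floor, every such probe set was at least 1.3-fold higher in 0.915%. In the family this was true of Cdh6 alone, 1 of 9 such members, a comparison chosen after the values were seen. At this intensity, though, 95% of genes lay within 1.45-fold, and Cdh6 lay inside that range.

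Cdh11, the cadherin of loose mesenchyme and of bone-forming cells, read 15009 on the wild-type and 13850 on the Hammer toe array on its brightest probe set. Its other probe set read 2207 and 2309.8. The log2 ratios, -0.12 and 0.07, differ in sign and are both small. Cdh10, expressed mainly in the nervous system, read 167 and 149, a log2 ratio of -0.16. Cdh22, also known mostly from brain, read 117 and 111, a log2 ratio of -0.08. Of the 9 type II cadherins 4 were measured, and Cdh6 was the only one of these 4 that was higher in Hammer toe on its brightest probe set. The slightly lower values of Cdh2 and of the brightest Cdh11 probe set stand beside those of other mesenchymal genes. On their brightest probe sets the 8 limb mesenchyme markers were all lower, with a median log2 ratio of -0.15. Over all measured genes 51.7% were higher. The summed intensity of the 8 markers went from 76536 to 69207. Other probe sets of Pdgfra and Msx1 reached 0.18 and 0.04, while every measured probe set of the remaining markers was lower. Cartilage markers were lower for 7 of 8, the median being -0.60, and their sum went from 14074 to 8921. The part of either cell population in the cadherin values was not tested.

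Cdh13 (T-cadherin) lacks the tail that binds catenins and is held in the membrane by a lipid anchor. It read 108 on the wild-type and 129 on the Hammer toe array, while a second probe set read 93.1 and 76.3. The first gave a log2 ratio of 0.26 and the second, with Hammer toe under the floor, a bound of -0.25, so the readings oppose each other and give no direction.

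**Figure D3:**
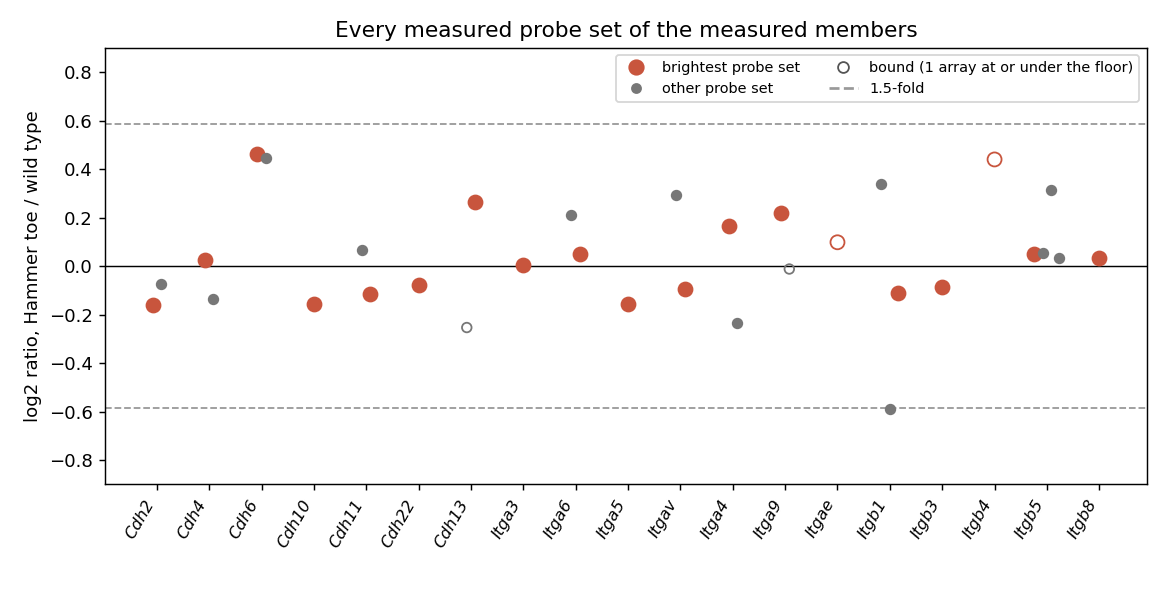
Log2 ratio, Hammer toe over wild type, of every measured probe set of the 19 measured members; large red circles are the brightest probe set of a gene, small grey circles the others, and open circles are bounds. The probe sets of Cdh6 coincide near 0.46, while those of Itgb1 spread from -0.59 to 0.34.

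The promoter sequences of Cdh6, Cdh10 and Itgb1 are given because they belong to the member with the largest ratio above the floor, to the nearest measured cadherin along the same chromosome, and to the chain whose probe sets disagreed most. In the RefSeq gene table of GRCm38.p6, Cdh6, Cdh9 and Cdh10 follow each other with 0 other protein-coding genes between them. Cdh9 was under the floor on both arrays, and Cdh10 had a ratio of opposite sign to Cdh6. Each sequence covers 250 bases before to 50 bases after the start, 5′ to 3′ on the strand of the gene, with CG pairs, the sites of DNA methylation, in capitals. They lie at chr15:13173626-13173925 on the minus strand, chr15:18820079-18820378 on the plus strand and chr8:128685404-128685703 on the plus strand.
Cdh6: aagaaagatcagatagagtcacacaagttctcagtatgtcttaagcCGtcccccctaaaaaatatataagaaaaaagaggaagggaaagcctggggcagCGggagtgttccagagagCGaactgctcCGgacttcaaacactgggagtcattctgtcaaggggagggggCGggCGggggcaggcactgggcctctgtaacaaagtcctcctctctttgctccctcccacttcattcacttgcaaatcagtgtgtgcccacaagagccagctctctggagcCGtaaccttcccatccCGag
Cdh10: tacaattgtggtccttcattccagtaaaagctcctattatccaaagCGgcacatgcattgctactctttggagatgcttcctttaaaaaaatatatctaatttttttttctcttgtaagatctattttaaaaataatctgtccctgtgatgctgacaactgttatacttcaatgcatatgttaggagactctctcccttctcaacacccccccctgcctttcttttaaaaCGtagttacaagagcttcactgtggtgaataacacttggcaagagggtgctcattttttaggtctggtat
Itgb1: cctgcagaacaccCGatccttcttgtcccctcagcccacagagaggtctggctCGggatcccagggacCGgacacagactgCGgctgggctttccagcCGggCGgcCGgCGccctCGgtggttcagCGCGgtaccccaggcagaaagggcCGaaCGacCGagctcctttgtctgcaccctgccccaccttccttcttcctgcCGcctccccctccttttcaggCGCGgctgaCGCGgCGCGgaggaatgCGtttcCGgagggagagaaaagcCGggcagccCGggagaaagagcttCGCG
The Cdh6 promoter holds 8 CG pairs, that of Cdh10 2 and that of Itgb1 27. RefSeq promoters were matched for 25 of the 37 members. The 11 measured members among them had a median of 13 CG pairs (range 2 to 38) and the 14 members under the floor a median of 10 (range 4 to 21). Over all genes with a promoter the medians were 21 for 9403 measured genes and 6 for 4961 others, so the gap among the members was narrower. The Gli-type site GACCACCCA, searched on both strands because Gli factors are the transcriptional end of hedgehog signalling, was found in 0 of the 25 members' windows and in 0.253% of all promoters. The E-box CAGGTG, the letters that repressors of cadherin genes such as Snail are known to bind, was found on either strand in 5 of 25 (Cdh7, Itga3, Itga9, Itgb5 and Itgb8) and in 20.2% of all promoters. Each member counts 1 window, while the shares of all promoters use all 32841 windows. With 1 window per gene, the Gli-type site was in 20 of 9403 measured genes and 8 of 4961 others. The E-box was in 1554 and 1273 of these, beside 4 of the 11 measured members and 1 of the 14 under the floor. These letters are a description of the windows, not of binding.

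Among the laminin-binding integrin chains, Itga6 and Itga3 were measured. Itga6, which pairs with Itgb1 or, in hemidesmosomes, with Itgb4, read 1929 on the wild-type and 1997 on the Hammer toe array. Its other probe set read 1228 and 1419.7. Both log2 ratios, 0.05 and 0.21, are above zero and inside the range of their intensity. Itga3, which binds laminins of basement membranes, read 375 and 377.

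Itgb4, the hemidesmosome chain of basal epithelial cells, read 46.4 on the wild-type array, which is under the floor, and 106 in the mutant. It was thus at least 1.36-fold higher, from a single probe set. The bound rests on the floor: taken from the intensities as deposited, the log2 ratio was 1.19. On their brightest probe sets, 10 of 12 surface ectoderm markers were also higher on the Hammer toe array, beside 51.7% of all measured genes. The median log2 ratio of the 12 was 0.34, with a summed intensity of 12661 on the wild-type and 15757 on the Hammer toe array. Of these, Cldn4 was 1.56-fold higher, and the lowest marker read 258 in wild type, so none was near zero. Epcam and Krt8, counted as higher, each had a lower probe set as well, with log2 ratios of -0.71 and -0.32. Krt14 and Cdh3, counted as lower, each had a higher probe set, at 0.40 and 0.05. The left-out epithelial cadherins, both among the 12 markers, differed from each other on their brightest probe sets. Cdh1 read 1248 and 1752, a log2 ratio of 0.49, and Cdh3 1444 and 1313, a log2 ratio of -0.14. The part of a larger share of ectoderm in the Itgb4 value was not tested.

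Itgav and Itga5, the chains of the group that recognise the RGD tripeptide of fibronectin and vitronectin, were both slightly lower on their brightest probe set. Itgav read 3106 on the wild-type and 2906 on the Hammer toe array, a log2 ratio of -0.10, but a dimmer probe set read 112 and 137, a log2 ratio of 0.29. Itga5, the classical fibronectin receptor chain, read 150.3 and 135 on a probe set of the _s_at type, a type that can match more than 1 transcript of a family, and its log2 ratio was -0.16. Neither difference exceeds the spread of genes at its intensity.

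Itga4 and Itga9 form a subfamily that binds fibronectin, Vcam1 and tenascin C. Itga4 read 228 and 256, a log2 ratio of 0.17, while its other measured probe set went the opposite way, from 104 to 88.5. Itga9 read 115 and 133, a log2 ratio of 0.22, and its second probe set read 78.7 and 76.0, a bound of -0.01. Both brightest readings were higher and both second readings lower, so no direction can be given for either gene.

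Of the leukocyte integrin chains, Itgae, which pairs with Itgb7 on lymphocytes within epithelia and binds Cdh1, read 54.9 on the wild-type and 83.6 on the Hammer toe array, a bound of 0.10 on the log2 scale. Itgal and Itgax were under the floor on both arrays, as was the partner chain Itgb7. Macrophage markers were higher in 7 of 7 measured genes, beside 51.7% of all measured genes. The median log2 ratio of these markers was 0.59, with a summed intensity of 2420.4 on the wild-type and 3252 on the Hammer toe array. The left-out myeloid chains Itgam and Itgb2 read at most 52.1. The part of macrophages in the Itgae value was not tested.

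Apart from Itgb4, the measured beta chains were within 1.5-fold on their brightest probe sets, and the probe sets of Itgb1 disagreed. Itgb1, the common partner of most matrix-binding alpha chains, read 1872 on the wild-type and 1733 on the Hammer toe array on its brightest probe set. A second probe set read 1437 and 1815, 1.26-fold higher, and another, of the _x_at type, which can bind related transcripts, read 508 and 337, 1.51-fold lower. The log2 ratios of -0.11, 0.34 and -0.59 have no common direction. Those of 0.34 and -0.59 lie beyond the range of 95% of genes at their intensity, 1.24-fold above 1000 and 1.45-fold from 200 to 1000. That range was taken from the brightest probe set of each gene. Readings on both sides of zero with 1 past 1.5-fold occurred in 3.51% of all genes with several probe sets above the floor, and Itgb1 was the 1 case among 9 such members. The spread between probe sets of a gene, as a pooled SD of log2 ratios, was 0.24 in these 9 members and 0.21 over 5134 genes.

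Itgb5, a vitronectin receptor chain that pairs with Itgav, was read by 4 probe sets above the floor. These read 1628 and 1683, 1141 and 1418, 1064 and 1089.6, and 853 and 887 in wild type and Hammer toe. All were higher in Hammer toe, but 3 of the log2 ratios were 0.03 to 0.06 and the fourth 0.31. Itgb8, which with Itgav releases active TGF-beta from its latent complex, read 502 and 514, a log2 ratio of 0.03. Itgb3, another partner of Itgav and the platelet chain that pairs with Itga2b, read 85.0 and 80.0, just above the floor.

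The other 18 members were under the floor on both arrays, with brightest probe sets between 0.753 and 72.1, and have no ratio. They comprise the cadherins Cdh7, Cdh8, Cdh9, Cdh16, Cdh17, Cdh18, Cdh20, Cdh23 and Cdh26, the integrin chains Itga1, Itga2, Itga7, Itga10, Itgal, Itgax, Itgb6 and Itgb7, and Itgbl1. All 3 collagen-binding alpha chains of the group (Itga1, Itga2 and Itga10) were in this group. Itga1 came nearest to the floor, at 71.1 and 72.1. An intensity under the floor does not show that a transcript is absent.

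Partners of the family, most of them intracellular, were also close to wild type by their medians. Of 18 measured catenins and other cadherin partners, membrane-spanning nectins included, 13 were higher and 5 lower, where 51.7% of all measured genes were higher. Their median log2 ratio was 0.05. Jup (plakoglobin), a catenin shared with desmosomes, was the only one of them at 1.5-fold, 1 of 18, from 362 to 546. Over all measured genes 2.17% were at least 1.5-fold higher. Ctnnb1 (beta-catenin) read 23894 and 24253, but its 3 measured probe sets had log2 ratios from -0.51 to 0.02. Ctnna1 (alpha-catenin) read 11132 and 11123, with its 3 measured probe sets from -0.05 to 0.32. Of 24 measured integrin adaptors and associated proteins, with the membrane proteins Cd47 and Cd151 among them, 17 were higher and 7 lower. Their median was 0.04, and 0 reached 1.5-fold, beside 2.17% higher and 1.39% lower over all measured genes. Tgfb1i1 (Hic-5), a relative of paxillin, was 1.31-fold higher, from 313 to 410.1, Sharpin, which keeps integrins inactive, was 1.23-fold lower, and the actin crosslinker Actn4 read 7260.0 and 6679.

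Of 27 measured integrin ligands 21 were higher and 6 lower, with a median log2 ratio of 0.10, where 51.7% of all measured genes were higher. Among the ligands 3 were at least 1.5-fold higher and 1 at least 1.5-fold lower, beside 2.17% and 1.39% of all measured genes. Tnc (tenascin C, bound by Itga9 and Itgav) read 305 and 496, Lama5 (a laminin chain of basement membranes, bound through Itga3 and Itga6) 292 and 460.1, and Postn (periostin, bound through Itgav) 547 and 853. Lamb3, a chain of the laminin under epithelia that Itga6 with Itgb4 binds, read 121 and 69.0, at least 1.55-fold lower, whereas Lama3, a chain of the same laminin chosen after the values were seen, was 1.35-fold higher. Fn1 (fibronectin), the ligand of Itga5, read 4998 and 5294, and Col1a2, a collagen chain, 12265 and 13736.

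Other members of the cadherin superfamily were mostly higher, 17 of 22 measured genes, where 51.7% of all measured genes were higher. Their median log2 ratio was 0.22, beside -0.08 for the 7 measured cadherins of the family. This difference between the lists was not tested. Dsc3, a desmosomal cadherin of stratified epithelia, was 1.90-fold higher, from 327 to 621, and Pcdh8, a protocadherin, 1.67-fold, from 769 to 1287. Pcdh18 read 4981 and 4455, a log2 ratio of -0.16. The other measured desmosomal cadherins were not alike: Dsc2 read 429.9 and 371, a log2 ratio of -0.21, and Dsg2 had a log2 ratio of 0.28 with probe sets from -0.17 to 1.16. The part of the higher ectoderm markers in the values of Dsc3 and Jup was not tested.

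**Figure D4:**
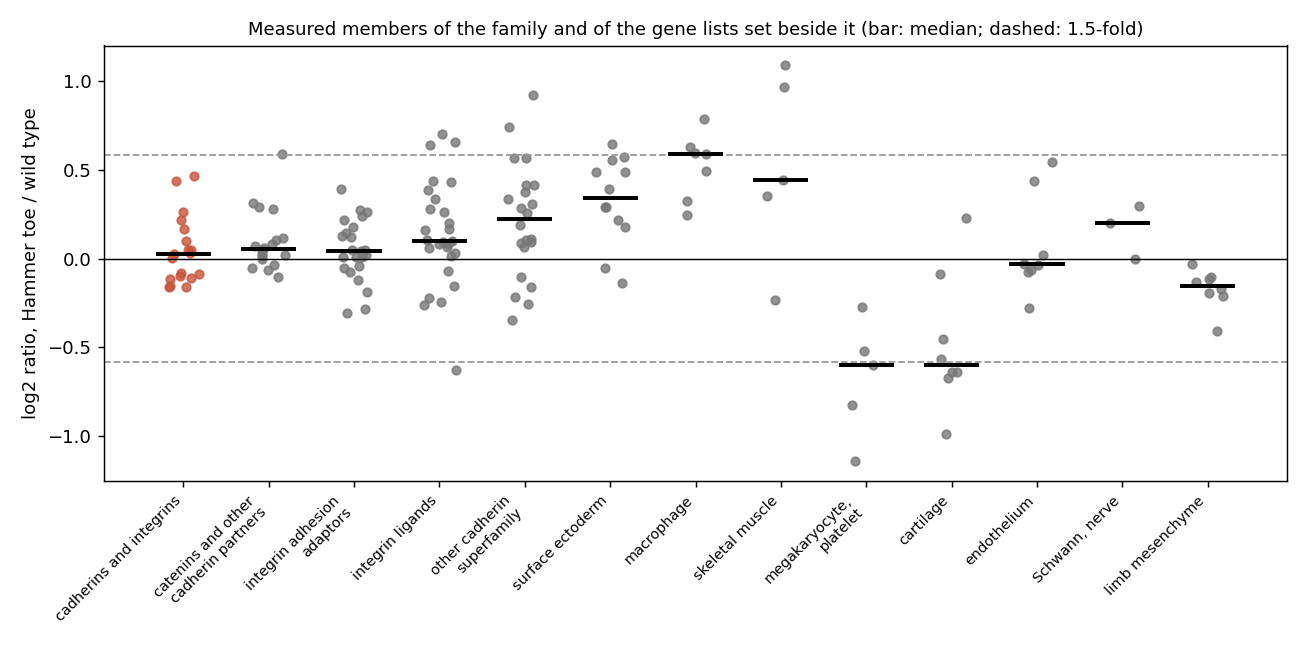
Log2 ratio, Hammer toe over wild type, of the measured members (points) of the cadherin and integrin family (red) and of the lists set beside it (grey), with the median of each as a bar and 1.5-fold as dashed lines. The family, the catenins and other cadherin partners, and the integrin adhesion adaptors centre near zero, with medians of 0.02, 0.05 and 0.04. Ectoderm, macrophage and muscle markers lie above, and platelet and cartilage markers below.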

How the data were processed

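The values are linear intensities, 1 for each probe set of each array, as deposited by the authors; the submitters' processing notes name MAS5 and Affymetrix Expression Console, with no version. MAS5 scales each array: after trimming 2% from either end, both arrays have a mean of 500.003, so a shift of most transcripts cannot be seen. Of 45101 probe sets, 64 were controls and 34945 named exactly 1 gene in GEO's platform annotation; symbols were updated through RefSeq gene IDs (GRCm38.p6), of which 204 probe sets had no match and kept the annotation's symbol. Log2 ratios were taken after raising values under the floor (the median of non-control values), with Python 3.11.15, pandas 2.3.3 and statsmodels 0.14.6. The script was tested on simulated data. No p-value was computed, as there is 1 array per genotype.

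The members and gene lists were chosen with earlier results of these data known. Values were named for every measured member and, in each other list, for members at 1.5-fold (at most 4) or the 2 largest, plus the one of highest intensity; cell type lists are given mainly as counts, and further genes named were chosen after their values were seen. Alternatives were median centring, quantile normalization, lowess (span 0.3), leaving the floor out, placing it at the 25th or the 75th percentile, adding 32 as a pseudocount instead, averaging the probe sets of a gene, dropping those of the _x_at, _s_at and _a_at types, and other sizes of change.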

Additional observations from a re-analysis of the deposited data

How the results depend on the processing

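Counts of members at 1.5-fold, bounds counted at their bound, were 0 higher and 0 lower, and stayed so with median centring, quantile normalization, lowess, the floor at the 75th percentile, the mean over probe sets, without the _x_at, _s_at and _a_at types, at 2-fold and when every measured probe set had to pass. Without a floor 2 members were higher (Itgae and Itgb4), beside 3.48% of all measured genes, with a pseudocount 1 (Itgb4), beside 2.12%, and at 1.3-fold 2, beside 6.32%. With the floor at the 25th percentile 32 members were measured, and 5 were higher and 4 lower, beside 7.48% and 6.89% of all genes; of these 9 only Itgae and Itgb4 were measured at the main floor. The median log2 ratio of the members ran from -0.10 (floor at the 75th percentile, 7 members) to 0.03. Of 156 values of single members under these alternatives, 147 moved by less than 0.21, the SD between probe sets of a gene. The other 9 belonged to Itgae, Itgb4, Cdh13, Itga9 and Itgb1, and Itgb1 went to 0.34 without the probe set types named. Part of the 147 could not move, so their number is not a measure of stability. Where both arrays are above the floor, leaving it out or lowering it changes nothing. A gene with 1 measured probe set has the same value under the mean over probe sets. Of these 156 values 7 changed sign: Itga3 with median centring and quantile normalization, Cdh4, Itga4 and Itgav with the mean over probe sets, and Itga9 and Itgb1 without those types. For Cdh13 the mean over probe sets was 0.00. No paired analysis was possible because each genotype has 1 array. The number of arrays limits the precision.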

Other observations

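Itga2b, the platelet chain that pairs with Itgb3, lies outside the family as defined by symbol, because its number is followed by a letter. It read 293 on the wild-type and 204 on the Hammer toe array, a log2 ratio of -0.52. All 5 measured megakaryocyte and platelet genes, Itga2b itself among them, were lower in Hammer toe, where 51.7% of all measured genes were higher. The median log2 ratio of the 5 was -0.60, with a summed intensity of 2294.8 on the wild-type and 1605 on the Hammer toe array. Tubb1, the platelet tubulin, was 2.21-fold lower and Ppbp, a platelet chemokine, 1.77-fold lower. Fermt3, the kindlin of blood cells and the adaptor of platelet integrins, read 370 and 304, with log2 ratios of -0.28 and -0.46 on its probe sets. Endothelial markers had a median log2 ratio of -0.03, with 3 of 8 higher, and the endothelial cadherin Cdh5 read 950.5 and 965. Skeletal muscle markers had a median of 0.44, with 4 of 5 higher, while the muscle cadherin Cdh15 was under the floor on both arrays, at 61.8 and 66.8. Of 3 measured Schwann and nerve genes the median was 0.20, and Cdh19 was under the floor on both arrays.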
